A study of Homo sapiens with 9 samples.

Results

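The genes described here encode the receptor CD40 and the proteins that carry its signal at the membrane: the TRAF adaptors TRAF1, TRAF2, TRAF3, TRAF5 and TRAF6, the ubiquitin ligases cIAP1 (BIRC2) and cIAP2 (BIRC3), and the kinase NIK (MAP3K14). Members were taken as the probe sets whose platform annotation names exactly 1 gene, with that gene among the 9 listed. The rule found 14 probe sets for 7 of the 9 genes, out of 41091 such probe sets for 19775 genes. CD40 had 4 probe sets, TRAF1, TRAF3, TRAF5 and TRAF6 had 2 each, and BIRC2 and MAP3K14 had 1 each. The annotation used names no probe set for TRAF2 or BIRC3, which were not analysed here. The study itself, which kept the best responding probe set of each gene, lists BIRC3 as raised by CD40L.

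The cells were BL2, a cell line established from a Burkitt lymphoma, which stands in the study for germinal centre B cells that have become transformed. Their mRNA was hybridised to HG-U133 Plus 2.0 arrays. Cells were unstimulated (control), or received recombinant human soluble CD40L at 200 ng/ml or LPS from E. coli at 1 uM, each for 6 hrs. The sample labels give no time in culture for the control arrays. Each condition had 3 arrays, 1 from each of 3 experimental batches, which the study describes as independent experiments. All values come from a single cell line, so p-values measure the spread between these experiments only. Levels are on the generalised log2 scale in which the authors deposited them, and a difference between dim probe sets on this scale understates the fold change.

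CD40 is a receptor of the TNF receptor family on B cells, and its ligand is supplied mainly by helper T cells in the germinal centre. Its tail has no enzyme activity and acts by recruiting TRAF proteins. In resting cells TRAF3, TRAF2 and the cIAPs form a complex that ubiquitinates NIK and keeps it at a low level. When CD40 is engaged the complex is drawn to the receptor, TRAF3 is degraded and NIK accumulates, so that the precursor p100, encoded by NFKB2, is processed to the NF-κB subunit p52. This is the non-canonical NF-κB pathway. TRAF6 also serves the LPS receptor TLR4, through MyD88 and IRAK kinases. Much of this control acts on protein, while the arrays measure mRNA.

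Sequences just upstream of the annotated transcription start are shown for the 3 genes that passed the test after CD40L and for TRAF3, the adaptor that holds NIK in check. Each is the 250 bases before the start, from RefSeq on GRCh38.p14, written 5′ to 3′ on the gene's strand. BIRC2 and TRAF5 have further annotated starts, and the first listed is shown. Capitals mark a match to the 10-letter NF-κB consensus, searched on either strand.
MAP3K14, chr17:45317021-45317270, minus strand: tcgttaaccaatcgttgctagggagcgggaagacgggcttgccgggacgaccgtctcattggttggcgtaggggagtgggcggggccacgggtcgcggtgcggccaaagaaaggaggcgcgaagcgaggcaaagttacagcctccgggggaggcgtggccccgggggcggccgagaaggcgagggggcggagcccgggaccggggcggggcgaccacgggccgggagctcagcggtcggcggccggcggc
TRAF3, chr14:102777199-102777448, plus strand: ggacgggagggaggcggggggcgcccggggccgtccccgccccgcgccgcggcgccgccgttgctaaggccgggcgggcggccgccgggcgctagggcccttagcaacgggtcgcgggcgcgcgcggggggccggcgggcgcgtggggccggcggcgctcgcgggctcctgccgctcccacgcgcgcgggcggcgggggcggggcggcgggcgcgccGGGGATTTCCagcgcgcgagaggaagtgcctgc
BIRC2, chr11:102346964-102347213, plus strand: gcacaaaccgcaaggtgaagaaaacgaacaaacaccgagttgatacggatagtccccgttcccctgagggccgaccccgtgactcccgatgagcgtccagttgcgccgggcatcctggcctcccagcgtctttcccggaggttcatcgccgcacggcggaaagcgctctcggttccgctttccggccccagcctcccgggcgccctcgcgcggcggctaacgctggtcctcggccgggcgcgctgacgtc
TRAF5, chr1:211326385-211326634, plus strand: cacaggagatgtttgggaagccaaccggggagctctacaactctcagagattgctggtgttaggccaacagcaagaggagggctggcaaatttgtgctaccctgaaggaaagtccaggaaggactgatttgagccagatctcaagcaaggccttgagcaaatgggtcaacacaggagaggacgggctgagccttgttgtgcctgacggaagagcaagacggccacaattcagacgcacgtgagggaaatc

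Start windows were found for 6 of the 7 genes, 11 windows in all. The NF-κB consensus was in 1 of them, that of TRAF3, where it began 33 bases before the start. Over all genes, 9.96% of 35116 windows of the same length hold it. No match was found upstream of MAP3K14, BIRC2 or TRAF5, which says only that these letters are not in these windows. G and C made up 73.6% of the MAP3K14 window and 86.4% of the TRAF3 window, against 53.6% of the TRAF5 window shown. In the further TRAF5 windows the share was 68.4% and 45.6%, and in the BIRC2 windows 67.6% and 73.2%.

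After CD40L, MAP3K14 mRNA rose and BIRC2 and TRAF5 mRNA fell, while no probe set of CD40, TRAF1, TRAF3 or TRAF6 passed the test. A probe set was called when its p-value from limma, adjusted over all 54613 probe sets after Benjamini and Hochberg, was at most 0.05. Of the 14 probe sets 3 were called, 1 higher and 2 lower. Over all probe sets 5.58% were called, 3.71% higher and 1.87% lower. An unadjusted p under 0.05 was reached by 6 of the 14. Such values were common, as the TRAF1 probe set 235116_at, at an unadjusted limma p of 0.0556, ranked 9033rd of the 54613 by p. The arrays of the 2 conditions did not overlap for 8 of the 14, 5 higher and 3 lower, against 16.4% of all probe sets, 9.09% higher and 7.27% lower. The median change of the 14 was 0.03 on the log2 scale, beside 0.005 over all probe sets.

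After LPS 0 of the 14 were called by limma, against a background of 2.06%, 1.17% higher and 0.892% lower. An unadjusted p under 0.05 was reached by 1 of the 14, the TRAF5 probe set 204352_at. For scale, the TRAF3 probe set 221571_at, at an unadjusted limma p of 0.0506, ranked 6412th of the 54613 by p. The arrays did not overlap with control for 2 of the 14, both lower, against 13.4% of all probe sets, 7.0% higher and 6.38% lower. Between CD40L and LPS directly 1 of the 14 was called, MAP3K14, which was higher with CD40L, where 0.396% of all probe sets were called, 0.3% higher and 0.0952% lower. The arrays of the stimuli did not overlap for 2 of the 14, both higher with CD40L, against 9.17% of all probe sets, 5.1% higher and 4.07% lower. Both stimuli were compared with the same 3 control arrays. In a bulk sample, a change in fewer cells and a smaller change in every cell cannot be told apart.

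**Figure D1:**
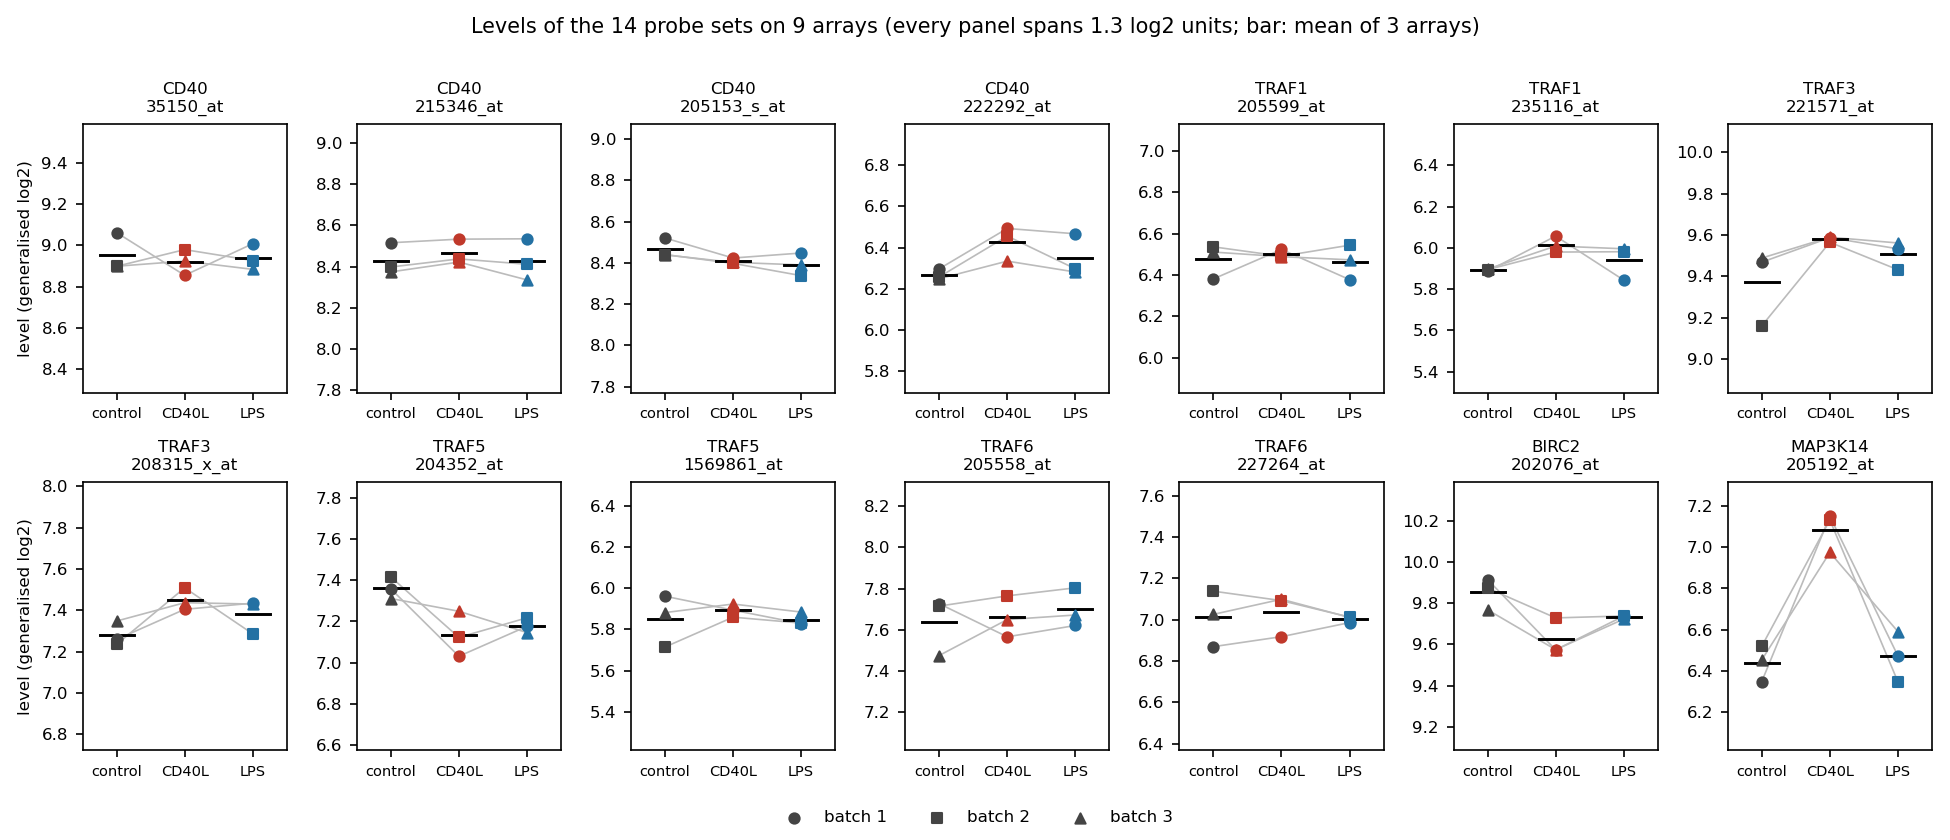
Level of each of the 14 probe sets on the 9 arrays, on the generalised log2 scale, with 1 panel per probe set, markers for the 3 batches and a bar at the mean of 3 arrays. Every panel spans the same number of log2 units. The rise of MAP3K14 after CD40L, from a mean of 6.44 to 7.08, can be set against the CD40 and TRAF6 panels. No CD40 or TRAF6 probe set was called.

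MAP3K14 encodes NIK, the kinase that starts the non-canonical pathway by phosphorylating IKKα. Its probe set 205192_at read 6.35, 6.52 and 6.45 on the control arrays of batches 1 to 3. It read 7.15, 7.13 and 6.97 after CD40L and 6.47, 6.35 and 6.59 after LPS. All 3 CD40L arrays lay above the other 6, and the LPS arrays overlapped the controls. The gap between the lowest CD40L array and the highest control array was 0.45.

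The change of MAP3K14 after CD40L was 0.64 on the log2 scale, with a standard error (SE) of 0.074, a 95% interval of 0.49 to 0.80 and a limma adjusted p of 5.09e-05. This is 1.56-fold as deposited. The difference was 0.80, 0.61 and 0.52 in batches 1, 2 and 3. It ranked 131st from the highest among the 54613 probe sets. With a control mean of 6.44 the probe set starts at about the array medians, 6.42 to 6.47, and the deposited scale is compressed at low levels.

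After LPS the change of MAP3K14 was 0.03, with an interval of −0.13 to 0.19 and an adjusted p of 0.951, and the batch differences of 0.12, −0.17 and 0.14 did not share a sign. CD40L and LPS differed by 0.61, with an SE of 0.074 and a limma adjusted p of 0.000628. The batch differences were 0.68, 0.78 and 0.38. In this direct comparison MAP3K14 had the 21st highest value of 54613. From lowest to highest the conditions ran control, LPS and CD40L, with the first pair not differing beyond its spread.

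**Figure D2:**
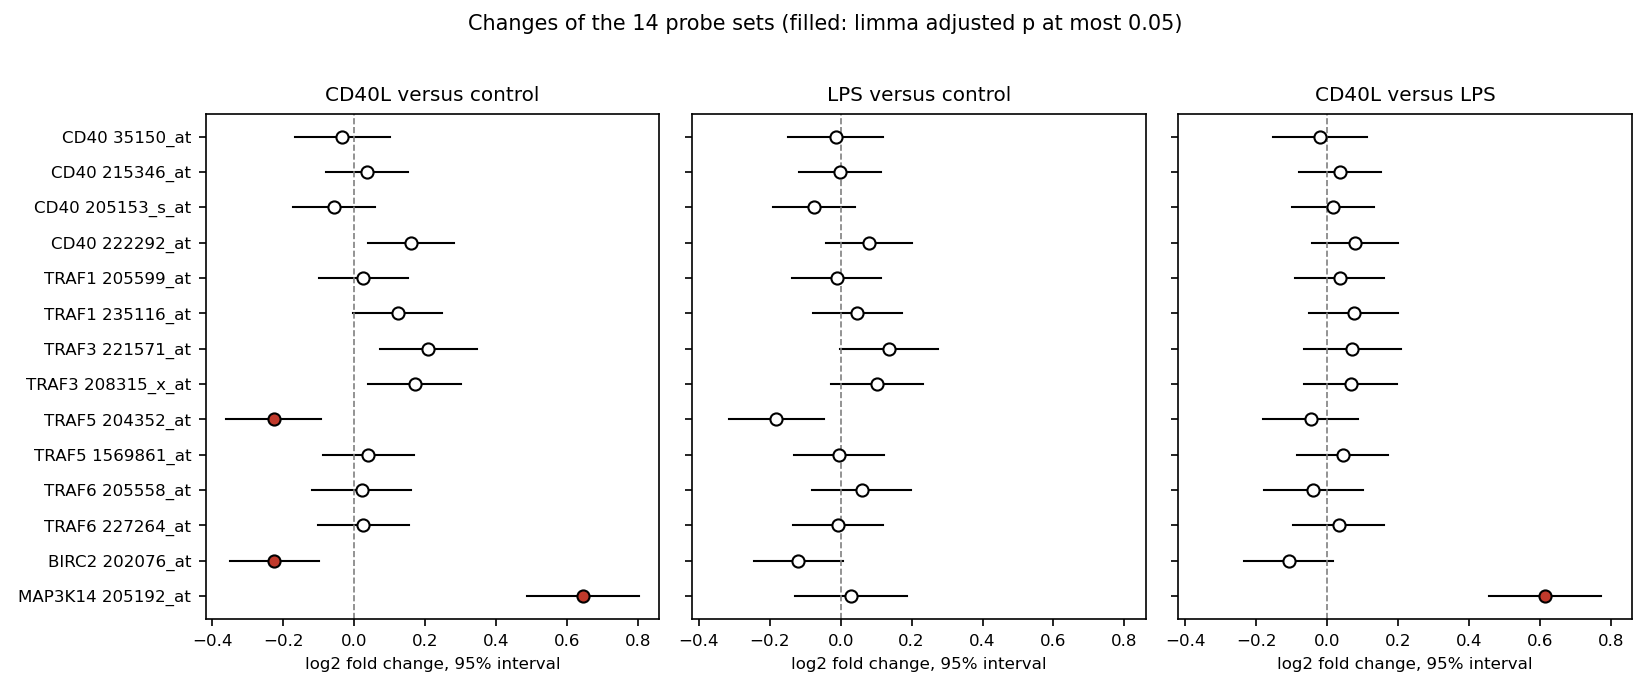
Log2 fold change of the 14 probe sets for CD40L versus control, LPS versus control and CD40L versus LPS, with 95% intervals from limma and filled points for an adjusted p of at most 0.05. MAP3K14 stands at 0.64 after CD40L and 0.03 after LPS, and the other filled points, for TRAF5 and BIRC2, both lie at −0.23 after CD40L.

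The receptor itself was measured by 4 probe sets. On 35150_at CD40 read 9.06, 8.90 and 8.90 in control cells, 8.85, 8.98 and 8.92 after CD40L, and 9.01, 8.93 and 8.88 after LPS. The 3 conditions overlapped on this probe set. The change after CD40L was −0.03 with an interval of −0.17 to 0.10 (limma adjusted p 0.891), and after LPS it was −0.01 with an interval of −0.15 to 0.12. On this probe set a log2 change of the size seen for MAP3K14 lies outside the interval.

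The other CD40 probe sets gave changes after CD40L of 0.03 (215346_at), −0.06 (205153_s_at) and 0.16 (222292_at). Of these, 222292_at is the dimmest, with a control mean of 6.27 and a CD40L mean of 6.43. Its arrays read 6.30, 6.26 and 6.25 in control cells and 6.49, 6.46 and 6.33 after CD40L. These groups did not overlap, but the adjusted p was 0.144. On 205153_s_at the CD40L arrays also did not overlap the controls, but lay below them, by a gap of 0.015. It was lower in all 3 batches, with a limma adjusted p of 0.721. Across the 9 arrays, with batch means removed, the correlations between pairs of CD40 probe sets ran from −0.55 to 0.58, so they did not track one another.

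TRAF1 is an adaptor that joins TRAF2 at the receptor and is itself a well-known NF-κB target in B cells. Its levels were low, with control means of 6.48 on 205599_at and 5.89 on 235116_at. On 205599_at it read 6.38, 6.54 and 6.51 in control cells, 6.52, 6.49 and 6.49 after CD40L, and 6.38, 6.54 and 6.47 after LPS. No condition stood apart. The change after CD40L was 0.03 with an interval of −0.10 to 0.15 (limma adjusted p 0.919).

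On the other TRAF1 probe set, 235116_at, the control arrays read 5.89, 5.89 and 5.90 and the CD40L arrays 6.06, 5.98 and 6.01. All 3 CD40L arrays were above the controls. The change was 0.12, with an interval from just under 0 to 0.25 and an adjusted p of 0.336. At a level this close to the lowest values on the arrays, 5.46 to 5.54, the size of a change cannot be read from these data.

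TRAF3 is the adaptor that brings NIK to the cIAPs for destruction. On its brighter probe set, 221571_at, it read 9.47, 9.16 and 9.49 in control cells, 9.59, 9.56 and 9.59 after CD40L, and 9.53, 9.43 and 9.56 after LPS. The control array of batch 2 was the lowest of the 9. The CD40L arrays lay above the control arrays, and the LPS arrays overlapped them.

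The change of TRAF3 after CD40L was 0.21 with an SE of 0.064 and an interval of 0.07 to 0.35, and its limma adjusted p of 0.0781 missed the threshold. By batch the difference was 0.12, 0.40 and 0.10. The second TRAF3 probe set, 208315_x_at, read 7.26, 7.23 and 7.35 in control cells and 7.40, 7.51 and 7.44 after CD40L. Its change was 0.17 with an interval of 0.04 to 0.30 and an adjusted p of 0.147. Over the 9 arrays the pair had a correlation of 0.82, the highest for 2 probe sets of 1 member. After LPS they gave 0.14 and 0.10, with adjusted p-values of 0.431 and 0.597. Under no alternative processing did either pass the threshold.

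TRAF5 is an adaptor of the same family. On 204352_at it read 7.36, 7.42 and 7.31 in control cells. It read 7.03, 7.12 and 7.25 after CD40L and 7.18, 7.22 and 7.15 after LPS. Every stimulated array was below every control array, and the stimuli overlapped each other.

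The change of TRAF5 after CD40L was −0.23 with an SE of 0.063 and a limma adjusted p of 0.0447. The batch differences were −0.33, −0.29 and −0.06, so batch 3 held little of the fall. After LPS the change was −0.18 and the adjusted p 0.201, with batch differences of −0.18, −0.20 and −0.17. Between the 2 stimuli TRAF5 differed by −0.05, with an interval of −0.18 to 0.09. The second TRAF5 probe set, 1569861_at, had a control mean of 5.85 and changed by 0.04 after CD40L (adjusted p 0.86). Its correlation with 204352_at was −0.21, so the fall rests on 1 probe set. The level of 1569861_at is close to the lowest values on the arrays, so it cannot show whether TRAF5 changed.

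The TRAF5 call was lost under 13 of 20 alternatives. Without the batch term the adjusted p was 0.0829, and without batch 1 the change was −0.18 with an adjusted p of 0.414. Leaving out the control or CD40L array of batch 1 or 2, any LPS array, or all arrays of batch 2 also ended it.

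TRAF6 is the adaptor shared by CD40 and TLR4. On 205558_at it read 7.73, 7.72 and 7.48 in control cells, 7.57, 7.76 and 7.65 after CD40L, and 7.62, 7.80 and 7.67 after LPS. On 227264_at the 9 arrays ran from 6.87 to 7.14. The conditions overlapped on both. The changes after CD40L were 0.02 and 0.03, and the changes after LPS were 0.06 and −0.01, with intervals that stayed between −0.14 and 0.20.

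BIRC2 encodes cIAP1, a ubiquitin ligase that acts on NIK and that TRAF2 carries to the receptor. Its probe set 202076_at read 9.91, 9.87 and 9.77 in control cells. It read 9.57, 9.73 and 9.57 after CD40L and 9.74, 9.74 and 9.72 after LPS. The control arrays were the 3 highest, and the CD40L and LPS arrays overlapped.

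The change of BIRC2 after CD40L was −0.23 with an SE of 0.059, an interval of −0.35 to −0.10 and a limma adjusted p of 0.0327. It was lower in all 3 batches, by −0.34, −0.14 and −0.19. After LPS the change was −0.12 with an interval of −0.24 to 0.01 and an adjusted p of 0.469, and the direct difference between the stimuli, −0.11, had an interval of −0.23 to 0.02. The BIRC2 call was lost under 10 of 20 alternatives. Without the batch term its adjusted p was 0.0730, and without batch 1 the change was −0.17 with an adjusted p of 0.402. Leaving out batch 3, the control array of batch 1, the CD40L array of batch 1 or 3, or the LPS array of batch 1 also ended it.

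**Figure D3:**
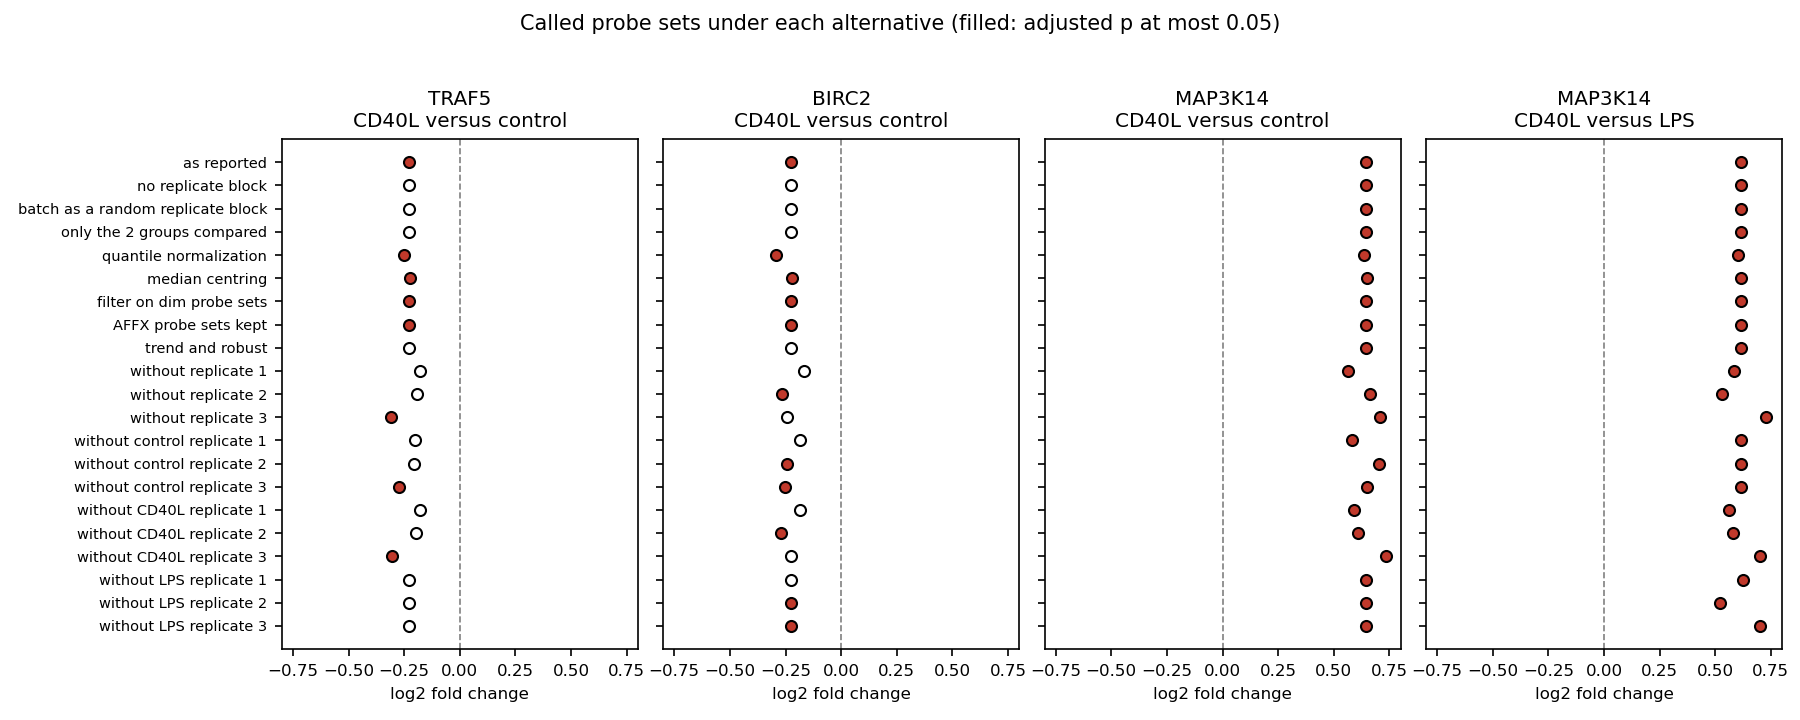
Log2 fold change of the called member probe sets as reported and under 20 alternatives, filled where the limma adjusted p was at most 0.05. All points for MAP3K14 are filled, between 0.57 and 0.73 after CD40L, while 13 of 20 for TRAF5 and 10 of 20 for BIRC2 are open at values that stay below 0.

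The genes whose pattern over the 9 arrays was most like that of each called member were sought by Pearson's correlation with batch means removed, among 41077 probe sets. The arrays share their conditions and there are only 9 of them, so these values are descriptions. Nearest to MAP3K14 were NSDHL, TEX264 and RABEP2, with correlations of 0.983, 0.983 and 0.981. Their own changes after CD40L were 0.17, 0.21 and 0.07, and of the 3 only TEX264 passed the test (adjusted p 0.0373). Nearest to BIRC2 were PLD4 (0.992), KMO (0.991) and OXR1 (0.989), with changes of −0.30, −0.46 and −0.19, the first pair of which passed. Nearest to TRAF5 were IGHM (0.991), WNK2 (0.987) and SPAG4 (0.984), and none of these passed the test after CD40L.

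The other genes of the pathway were taken from 7 lists, 104 genes of which 92 were measured, with the brightest probe set standing for each gene. After CD40L 20 of the 92 were called, 13 higher and 7 lower, where 7.95% of all genes were, 5.03% higher and 2.92% lower. After LPS 11 were called, 9 higher and 2 lower, against 3.1% of all genes, 1.62% higher and 1.48% lower. Between CD40L and LPS 5 were called, 3 higher and 2 lower with CD40L, against 0.642% of all genes, 0.491% higher and 0.152% lower. The median change of the 92 was 0.04 after CD40L and 0.03 after LPS.

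The NF-κB subunits and IκB proteins are the transcription factors at the end of the pathway and their inhibitors. Of 10 measured, 4 rose and 1 fell after CD40L, and 4 rose after LPS. NFKB2, the p100 precursor on which NIK acts, rose by 1.01 after CD40L, from a mean of 7.69 to 8.70 (SE 0.063, limma adjusted p 1.09e-07). After LPS its change of 0.24 was not called (adjusted p 0.0701), and the stimuli differed by 0.77 (adjusted p 1.57e-05). NFKBIE, which encodes the inhibitor IκBε, rose by 0.83 after CD40L and 0.49 after LPS. NFKBIZ, a nuclear IκB protein, rose after LPS by 0.44 and had a change of 0.00 after CD40L, and the direct difference was called (adjusted p 0.0283). The LPS call of NFKBIZ was lost under 5 of 20 alternatives and the direct call under 9 of 20.

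RELB, the partner of p52, was named after its values were seen. It rose after CD40L by 0.52 and after LPS by 0.43, and these calls were lost without the batch term, with adjusted p-values of up to 0.133 and 0.386 under the alternatives. The call after LPS was also lost without batch 1 and without the LPS array of batch 2. REL, the subunit c-Rel, fell by 0.33 after CD40L, a call lost without the batch term and without batch 3.

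Among ubiquitin enzymes that act on TRAFs, cIAPs or NIK, 2 of 16 rose after CD40L and none fell. TNFAIP3, the editing enzyme A20, rose by 0.63 after CD40L and 0.39 after LPS. CYLD, a deubiquitinase of the pathway, rose by 0.30 after CD40L (adjusted p 0.00658), read 0.00 after LPS and was higher with CD40L than with LPS by 0.30 (adjusted p 0.0446). The direct call of CYLD was lost under 13 of 20 alternatives. Of the 9 other IAP genes and IAP antagonists measured, 0 were called by limma in any comparison. At an unadjusted p under 0.05 there were 0 after CD40L, 1 after LPS and 0 between the stimuli.

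Of 12 other TRAF genes and TRAF partners 3 rose after CD40L and 1 after LPS. TANK, which binds TRAF proteins, rose by 0.31 after CD40L (adjusted p 0.0140) and TRAF3IP1 by 0.30. Their calls were lost under 7 and 8 of 20 alternatives. TRAF4, another member of the TRAF family, rose by 0.23 after CD40L (adjusted p 0.0310) and by 0.29 after LPS (adjusted p 0.0159), and the direct difference of −0.06 was not called (adjusted p 0.999). The TRAF4 calls were lost under 13 and 8 of 20 alternatives. Of 16 kinases downstream, 2 rose and 1 fell after each stimulus. IKBKE, an IKK-related kinase, rose by 0.72 after each stimulus, MAP3K8, the kinase TPL2, by 0.30 and 0.29, and MAP2K6, a p38 kinase kinase, fell by 0.27 and 0.26. The LPS calls of MAP2K6 and MAP3K8 were lost under 17 and 11 of 20 alternatives, and their CD40L calls under 7 and 3.

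Of 16 other TNF receptors that bind TRAFs, 1 rose and 1 fell after CD40L. TNFRSF18, the receptor GITR, rose by 0.61 after CD40L and 0.44 after LPS. CD27, a receptor of B and T cells, fell by 0.59 after CD40L and was lower with CD40L than with LPS by −0.48 (adjusted p 0.00261). The direct call of CD27 was lost under 7 of 20 alternatives. Of the 13 genes of the LPS receptor and its adaptors, 1 rose and 4 fell after CD40L and 1 fell after LPS. IRAK2, a kinase of TLR4 signalling, fell by 0.42 after CD40L and TLR4 itself by 0.26, a call lost under 13 of 20 alternatives. TOLLIP, an adaptor that restrains this pathway, rose by 0.24, a call lost under 12 of 20. IRAK3, a brake on the other IRAK kinases, fell by 0.25 after CD40L (adjusted p 0.0249) and by 0.28 after LPS (adjusted p 0.0315), and the direct difference of 0.02 was not called (adjusted p 0.999). These calls were lost under 8 and 10 of 20 alternatives. Of the calls named from these lists, those of NFKB2, NFKBIE, TNFAIP3, TNFRSF18, CD27, IKBKE and IRAK2 after CD40L, of IKBKE after LPS and of NFKB2 between the stimuli were kept under every alternative tried, and the other 24 of 33 were lost under at least 1.

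**Figure D4:**
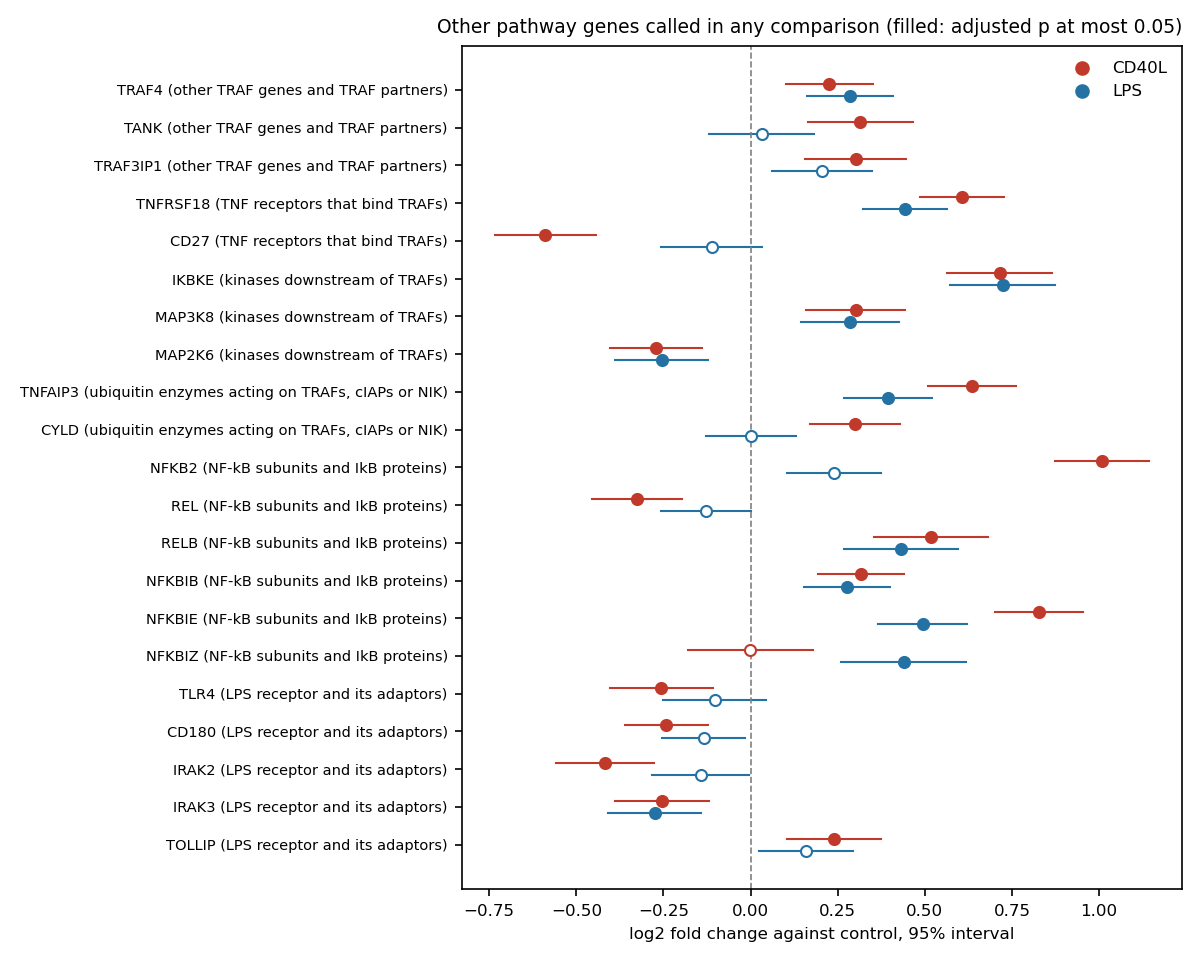
Log2 fold change against control, with 95% intervals, of the other pathway genes called in any of the 3 comparisons, for CD40L (red) and LPS (blue), filled where the limma adjusted p was at most 0.05. NFKB2 lies at 1.01 after CD40L and 0.24 after LPS, CD27 at −0.59 and −0.11, and IKBKE at 0.72 for each.

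The identity of the cells was checked with marker lists. All 7 measured B cell markers were above a level of 8, from CD72 at 8.30 to MS4A1 at 13.0, and of 7 germinal centre markers 6 were. None of the 12 T and NK cell, 9 monocyte and macrophage and 9 fibroblast markers reached that level. The highest of them, COL1A1 at 7.94, lay above the lowest germinal centre marker, SERPINA9 at 7.19. Of these 30 markers, by brightest probe set, 0 were called by limma after CD40L or LPS, against 7.95% and 3.1% of all genes. At an unadjusted p under 0.05 there were 4 after CD40L and 0 after LPS. The study, which kept the best responding probe set of each gene, lists COL1A1 as raised by CD40L. Of the B cell markers 4 fell after CD40L and 2 after LPS, and of the germinal centre markers 5 fell after each stimulus. Over all genes 2.92% were called lower after CD40L and 1.48% after LPS. The mean level of the B cell list ran from 10.2 to 10.3 over the control arrays and from 10.0 to 10.1 after CD40L, and that of the germinal centre list from 9.62 to 9.65 and from 9.16 to 9.25. Their part in the falls of BIRC2 and TRAF5 was not tested.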

How the data were processed

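Microarray expression was measured in 9 BL2 arrays. The authors corrected the background and stabilised the variance at the probe level, used median polish to obtain 1 value per probe set, and deposited generalised log2 values, which were used as given. Of 54675 probe sets, 62 AFFX controls were left out and 54613 tested, and 41097 have 1 gene in the platform annotation. Symbols were checked through Entrez identifiers against GRCh38.p14, which held 41043 of them.

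The limma fit (limma 3.58.1, lmFit and eBayes, R 4.3.3) had condition and batch as terms over all 9 arrays, as the study's methods model the batches, with 4 residual and 11.6 prior degrees of freedom. Tests were two-sided with Benjamini-Hochberg adjustment, and 0.05 was the threshold. The batch number in the sample names pairs the arrays. Deviations from group means correlated at a mean of 0.217 within a batch (9 pairs, −0.181 to 0.466). The mean of −0.109 between batches adds no separate support, because deviations within a group cancel out. Within batch 2 the correlations were −0.181, 0.183 and −0.040. In the fit with the batch as a random replicate block, the consensus correlation of the batches was 0.0724. With 3 arrays a condition an exact permutation test of 1 value cannot go below 0.1, so none was used. The number of arrays limits the precision.

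The genes, lists and tests were chosen with earlier results of these data known. Named were all members, and from each pathway list up to 2 called genes with the largest rise and 2 with the largest fall in each comparison, plus for each called member the 3 genes of most similar pattern. The calls of RELB, and those of TRAF4 and IRAK3 after CD40L, were added outside this rule. After LPS, TRAF4 and IRAK3 met it. Doses and times come from the study's methods. Alternatives changed the batch term, the arrays in the fit, the normalization, the filter on dim probe sets, the control probe sets, the variance prior and the arrays left out. The fits were tested on simulated data.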

Additional observations from a re-analysis of the deposited data

How the results depend on the processing

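MAP3K14 kept its call under all 20 alternatives, with changes of 0.57 to 0.73 for CD40L versus control (highest adjusted p 0.00685) and 0.52 to 0.73 for CD40L versus LPS (highest 0.0393). TRAF5 and BIRC2 kept their direction, at −0.31 to −0.18 and −0.29 to −0.17, but lost the call under 13 and 10 of 20. No member probe set outside the 3 was called under any alternative, and no member or named pathway call was reversed.

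After CD40L the 3 called member probe sets, and the 3 called members, became 1 without the replicate block, with the batch as a random replicate block, with only the 2 groups compared and with the trend and robust prior. Leaving out a batch or an array gave 1 to 3 for each. The counts after LPS (0) and between the stimuli (1) did not change. Of the other pathway genes, the 20 called after CD40L became 12 without the block and 13 with only the 2 groups, and 9 to 20 with arrays left out. The 11 called after LPS became 2 without the block, 6 with the random block and 7 with only the 2 groups, and 4 to 12 with arrays left out. The 5 called between the stimuli became 1, 2 and 8 in these fits, and 1 to 8 with arrays left out. Of 33 calls of named pathway genes 9 were kept under every alternative and 24 were lost under at least 1. The cause was not tested.

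The deposited scale compresses dim probe sets, so the low levels of TRAF1 and MAP3K14 limit what their changes can show.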
